A study of Mus musculus with 10 samples.

Results

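Solute carriers are membrane proteins that move amino acids, transmitters, sugars, ions and metabolites across the plasma membrane and the membranes of organelles. Their genes are numbered by family, and a probe was taken as a member where the platform annotation gave it a single gene symbol beginning with Slc and a number. That rule found 149 probes for 145 genes among 9078 listed probes, 9066 of which had 1 symbol and stood for 8726 genes. Of the 149 probes, 33 belonged to families that carry amino acids, peptides and transmitters, 9 to glucose and sugar families, 38 to ion and metal families, 16 to the mitochondrial Slc25 family and 53 to families of other organic solutes. The name covers a few genes that do not encode carriers. Slc9a3r1 and Slc9a3r2 are scaffold proteins that bind a sodium-proton exchanger, Slc4a1ap is an adaptor protein, and Slc6a19os is a transcript from the strand opposite Slc6a19.

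In the cortex, carriers of the Slc1 and Slc6 families clear glutamate, GABA, glycine and monoamines from the space around synapses. Slc17, Slc18 and Slc32 carriers load transmitters into synaptic vesicles with the proton gradient made by a vesicular proton pump. Many plasma membrane carriers draw on the sodium gradient kept by the sodium pump, astrocytes and neurons pass glutamine through Slc38 carriers, and Slc25 carriers connect the cytosol with the mitochondrial matrix.

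RNA came from the prefrontal cortex of male DBA/1 mice, a strain in which injected type II collagen brings on arthritis. At 8 weeks of age collagen mice were injected with type II collagen (100 µl) mixed with Complete Freund's adjuvant (100 µl). Control mice received 200 µl of the adjuvant alone at the same age, and both arms were given LPS at day 24. Collagen and control RNA were hybridised together on each of 10 printed oligonucleotide arrays with 2 colours. The comparison therefore holds collagen together with the smaller adjuvant volume, on a background of adjuvant and LPS that both arms share. The arrays form 5 dye-swap pairs that carry 3 replicate numbers: pairs 1 and 4 were averaged into replicate 1, pairs 2 and 5 into replicate 2, and pair 3 stood alone as replicate 3. The series text describes 3 biological replicates, with dye swaps as technical replicates. The labels do not give the number of mice behind a replicate, or whether 2 pairs of the same number share RNA. The p-values therefore measure only the spread between replicate numbers, part of which may be technical. In cortex as a whole, fewer cells of a type and less RNA per cell cannot be told apart.

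Ratios are log2 of collagen over control. The files name the channels only A and B. Cy3 was assigned to A and Cy5 to B, which makes each direction likely rather than settled: with the letters the other way round every sign turns and every size stays. Ratios were normalised within each array by a loess curve over all listed probes (global loess), and a loess within each printed grid (print-tip loess) is given beside it because the ratio depended on the place of a probe on the array. A probe was fitted where it had a ratio in all 3 replicates, which held for 60 of the 149 solute carrier probes and for 4125 of the 9078 listed probes.

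No solute carrier passed the test between collagen and control cortex. The 60 fitted probes had log2 ratios between -0.39 and 0.33, and 50 of them lay within 0.25 of 0. Ratios were above 0 for 27 probes and below 0 for 33, with a median of -0.018 against -0.019 over all 4125 probes. By replicate, the median over the solute carriers was -0.015 in replicate 1, 0.0013 in replicate 2 and -0.088 in replicate 3. The standard deviation of a probe between the 3 replicates was 0.19 at the median, which is larger than the ratio of most members.

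With limma, 0 of the 60 probes had an adjusted p under 0.05, and the lowest adjusted p was 0.643. The same threshold called 0% of all probes on the higher side and 0% on the lower side. At an unadjusted p under 0.05, 1 member was higher in collagen cortex (Slc20a1) and 3 were lower (Slc4a4, Slc14a2 and Slc35b2), where all probes gave 2.42% higher and 4.24% lower. After print-tip loess no member was higher and 1 was lower (Slc14a2) at the same threshold, against 1.84% and 2.69% of all probes. The same sign in all 3 replicates was found for 7 members above 0 and 14 below, set against 14.4% and 21.3% of all probes. These counts lie near the shares of all probes, so they are no result about the solute carriers. Without pair 4, with 45 members fitted, none was higher and 2 were lower at an unadjusted p under 0.05, against 2.27% and 3.53% of all probes. Without replicate 3 the fit rests on 2 replicates and takes in 97 members, of which 8 were higher and 4 lower at that threshold, against 3.32% and 2.56% of all probes. Together these 12 are 12.4% of the members, where all probes gave 5.88%, and no adjusted p was under 0.825 by limma. The higher ones were Slc15a2, Slc37a3, Slc20a1, Slc41a3, Slc30a6, Slc31a2, Slc48a1 and Slc7a11, and the lower ones Slc14a2, Slc4a4, Slc35a5 and Slc4a8. Among them Slc37a3, Slc30a6, Slc31a2, Slc7a11, Slc35a5 and Slc4a8 had no value in replicate 3. This fit was not repeated with print-tip loess.

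**Figure D1:**
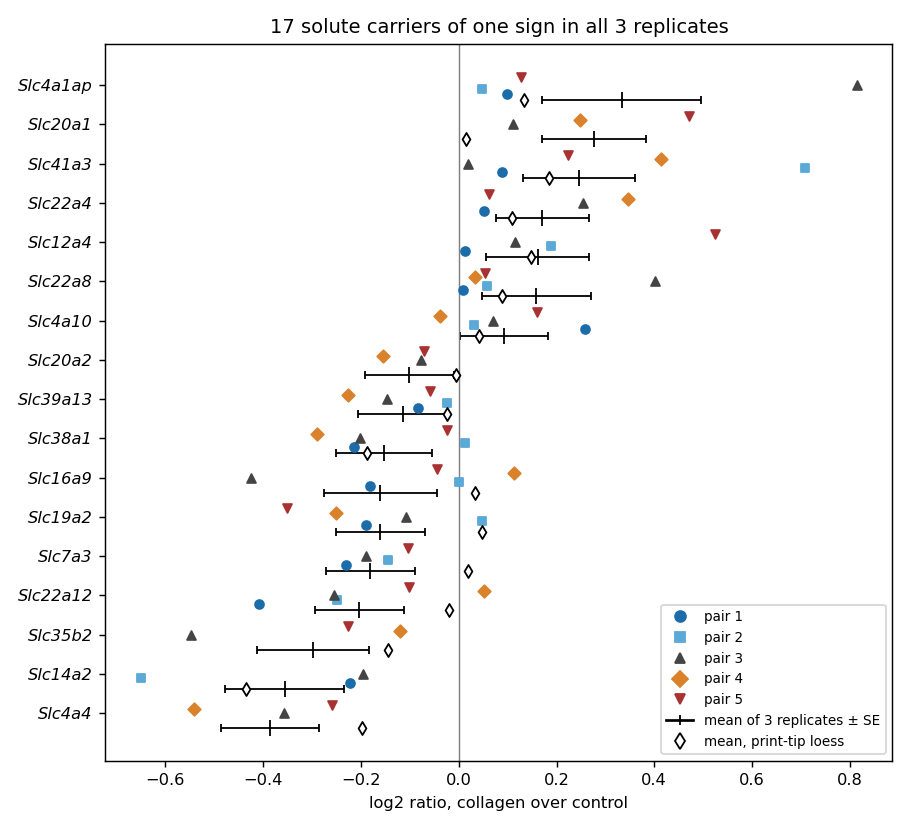
Log2 ratio of collagen over control for 17 of the 21 solute carriers that had the same sign in all 3 replicates. Shown are the 7 higher ones and the 10 lower ones with the lowest unadjusted p by limma. Each dye-swap pair measured has a coloured point. A bar gives the mean of the 3 replicates ± limma's SE, and an open diamond the mean after print-tip loess. Slc4a4 lies at -0.39 and Slc4a1ap at 0.33, and the diamonds of Slc20a1, Slc20a2, Slc7a3, Slc16a9 and Slc19a2 lie close to 0 or on its other side.

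Amino acid and transmitter carriers had 14 fitted probes of 33, with 8 above 0 and 6 below and a median log2 ratio of 0.023. The counts were the same after print-tip loess, with a median of 0.017, and the median was -0.0054 when arrays were scaled to a common spread. Without background correction 10 were above 0 and 4 below. With pairs 3 to 5 alone, 3 were above and 7 below with a median of -0.093. None had an unadjusted p under 0.05. Slc38a1, a neuronal importer of glutamine, had log2 ratios of -0.21, 0.01, -0.20, -0.29 and -0.02 in pairs 1 to 5, so the collagen value was the lower in 4 of 5 pairs. Its mean over replicates was -0.15 ± 0.13 (SD, n = 3; limma's SE 0.10, adjusted p = 0.654), and -0.19 with print-tip loess. Slc38a3, which moves glutamine across the astrocyte membrane, had 0.18, 0.24 and 0.31 in pairs 1 to 3 and -0.24 and -0.03 in pairs 4 and 5. The mean of 0.13 ± 0.17 (SD, n = 3) thus joins pairs of opposite sign, and it was 0.02 with print-tip loess.

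Slc1a3, the glutamate transporter of astrocytes, was measured in pairs 3 to 5 only. Its normalised log2 intensity was 19.68, 18.79 and 19.28 in collagen cortex, against 19.54, 18.74 and 19.28 in control cortex. The 2 arms differed by less than the spread between pairs, with a log2 ratio of 0.06 ± 0.07 (SD, n = 3; 0.02 with print-tip loess). Slc32a1 loads GABA and glycine into synaptic vesicles and was measured in all 5 pairs. Its ratios were 0.93, -0.23, 0.11, -0.34 and -0.04, with both signs and a mean of 0.09 ± 0.22 (SD, n = 3; 0.03 with print-tip loess). Pair 1 stood far above the others, and the arrays with collagen on Cy5 averaged -0.78 where those with collagen on Cy3 averaged 0.95.

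Slc7a3, an importer of arginine and lysine, had negative ratios in all 4 pairs measured: -0.23, -0.14, -0.19 and -0.10 in pairs 1, 2, 3 and 5. The mean was -0.18 ± 0.05 (SD, n = 3; limma's SE 0.09, adjusted p = 0.643), yet 0.02 with print-tip loess, so the sign depends on whether the place on the array is taken out. Slc7a5, the large neutral amino acid transporter of the blood-brain barrier, had 0.15, -0.09, -0.04, -0.22 and -0.03 in pairs 1 to 5. That gave -0.04 ± 0.01 (SD, n = 3; -0.02 with print-tip loess), the smallest spread between replicates of the members named here, although its pairs 1 and 4 lie on both sides of 0. Slc15a2, a peptide importer, had 0.11, 0.43, -0.25, 1.42 and 0.43 in pairs 1 to 5, with a mean of 0.31 ± 0.52 (SD, n = 3; 0.18 with print-tip loess). Replicate 3 was negative, and the mean was 0.09 without pair 4 and 0.60 without replicate 3. Among the remaining fitted carriers of the class, Slc43a3 had 0.27 (0.07 with print-tip loess). Slc1a6, a glutamate transporter best known from cerebellar Purkinje cells, had 0.14, and -0.04 with print-tip loess. Slc6a6, the taurine transporter, had -0.10, and -0.00033 with print-tip loess.

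Several carriers that define transmitter systems gave no full set of replicates, and 3 of them could be fitted on replicates 1 and 2. Slc6a4, the serotonin transporter, had ratios only in pairs 1 and 2, at -0.09 and 0.00, with a mean of -0.04 (limma's SE 0.09, adjusted p = 0.933). Slc6a9, a glycine transporter of glia, had 0.10, 0.03 and -0.35 in pairs 1, 4 and 5, with a mean of -0.14 (limma's SE 0.13, adjusted p = 0.862). Slc7a11, the cystine-glutamate exchanger, was above 0 in both pairs measured, at 0.31 in pair 1 and 0.24 in pair 5. Its mean of 0.28 (limma's SE 0.09) had an unadjusted p of 0.0294 and an adjusted p of 0.825 by limma. Slc18a3, the vesicular acetylcholine transporter, had 0.11 in pair 1 alone. The noradrenaline transporter Slc6a2 had no pair with both arrays measured. Neither had the second replicate that a test needs.

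Glucose and sugar carriers were the least measured class, with 1 fitted probe of 9. That probe stood for Slc2a3, the glucose transporter of neurons, whose normalised log2 intensity in pairs 3 to 5 was 16.31, 17.74 and 19.63 in collagen cortex, against 16.58, 17.74 and 19.50 in control cortex. The collagen value was lower, equal to 2 decimals and higher in turn, and the log2 ratio was -0.04 ± 0.20 (SD, n = 3; -0.11 with print-tip loess). The other 8 were not fitted. Slc37a3, of the sugar-phosphate exchanger family, had the widest range among them, at 1.12, 0.25 and 0.18 in pairs 1, 4 and 5. Slc2a9, a urate and sugar transporter, had 0.16, -0.24 and 0.19 in pairs 1, 2 and 5. Slc5a7, the choline transporter of cholinergic terminals, which the family number places here, had no complete pair.

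Ion and metal carriers had 16 fitted probes of 38, with 7 above 0 and 9 below and a median of -0.063. After print-tip loess 5 were above 0 and 11 below with a median of -0.019, and after median centring 9 were above and 7 below with a median of 0.020. Without background correction the split was 8 and 8. The class held the member with the lowest unadjusted p. Slc4a4 encodes a sodium bicarbonate cotransporter of astrocytes, and its fitted probe was measured in pairs 3 to 5. The normalised log2 intensity was 18.52, 18.40 and 18.98 in collagen cortex, against 18.88, 18.94 and 19.24 in control cortex, the lower of the 2 in each of the 3 pairs. The log2 ratio was -0.39 ± 0.14 (SD, n = 3; limma's SE 0.10), with an unadjusted p of 0.00784 and an adjusted p of 0.643 by limma. Its probe lies in grid row 1, and print-tip loess gave -0.20 with an unadjusted p of 0.0632. A second probe for Slc4a4 had a single complete pair, pair 3, at -0.23. Over all its arrays with a ratio, that probe averaged -0.22 with collagen on Cy5 and 0.86 with collagen on Cy3.

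Slc20a1 and Slc20a2 are sodium-phosphate cotransporters, both measured in pairs 3 to 5. Slc20a1 had a normalised log2 intensity of 19.51, 19.08 and 19.50 in collagen cortex, against 19.40, 18.83 and 19.03 in control cortex, and so was higher in all 3 pairs. Its ratio of 0.28 ± 0.18 (SD, n = 3) had an unadjusted p of 0.0398 and an adjusted p of 0.643 by limma. Print-tip loess gave 0.01. Slc20a2 had ratios of -0.08, -0.16 and -0.07, with a mean of -0.10 ± 0.05 (SD, n = 3) and -0.01 with print-tip loess. The 2 carriers of the family thus lay on opposite sides of 0 in each pair, and both were close to 0 once each grid was fitted by itself.

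Slc41a3, of the magnesium transporter family, was above 0 in all 5 pairs, at 0.09, 0.71, 0.02, 0.41 and 0.22. Its mean was 0.25 ± 0.22 (SD, n = 3; limma's SE 0.12, adjusted p = 0.643), and it was 0.19 with print-tip loess. Its 2 dye orientations disagreed, with -0.15 where collagen was on Cy5 and 0.73 where it was on Cy3. Slc12a4, a potassium-chloride cotransporter, was above 0 in its 4 pairs, at 0.01, 0.19, 0.11 and 0.52 in pairs 1, 2, 3 and 5, with a mean of 0.16 ± 0.18 (SD, n = 3) and 0.15 with print-tip loess. Slc39a13, a zinc importer, was below 0 in all 5 pairs, at -0.08, -0.02, -0.15, -0.23 and -0.06. That mean of -0.11 ± 0.06 (SD, n = 3) was alike on both dye orientations, at -0.11 and -0.11, and was -0.02 with print-tip loess.

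Slc4a10, a sodium-driven bicarbonate exchanger of neurons and choroid plexus, had 0.26, 0.03, 0.07, -0.04 and 0.16, with a mean of 0.09 ± 0.02 (SD, n = 3; 0.04 with print-tip loess). Slc30a3, which loads zinc into the vesicles of glutamatergic neurons, had 0.09, 0.16, 0.17, -0.28 and 0.16. Pair 4 was the exception to 4 pairs above 0, and the mean was 0.08 ± 0.15 (SD, n = 3; -0.0040 with print-tip loess). Slc8a1, the sodium-calcium exchanger, had 0.01, -0.19, -0.30 and 0.02 in pairs 1, 2, 3 and 5, a mean of -0.13 ± 0.16 (SD, n = 3) and -0.21 with print-tip loess. Slc12a2, which brings chloride into cells, had 0.29, -0.06 and 0.05 in pairs 3 to 5. Its mean of 0.09 ± 0.18 (SD, n = 3) turned to -0.01 with print-tip loess. Slc12a7 lay at -0.25 (-0.07 with print-tip loess) and Slc30a5 at -0.11 (-0.08). Slc30a1, a zinc exporter, was not fitted and had -0.45 and -0.10 in pairs 3 and 5. The adaptor Slc4a1ap had the highest mean of all members, 0.33 ± 0.42 (SD, n = 3; 0.13 with print-tip loess). Pair 3 had 0.81, where pairs 1, 2 and 5 had 0.10, 0.05 and 0.13.

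Mitochondrial Slc25 carriers were the class most often fitted, with 9 of 16 probes, 5 above 0 and 4 below and a median of 0.015. Print-tip loess gave 6 above and 3 below with a median of 0.017, while median centring gave 3 above and 6 below with a median of -0.081, and no background correction 4 above and 5 below with a median of -0.057. None had an unadjusted p under 0.05. Slc25a3 brings phosphate into the matrix for ATP synthesis, and its normalised log2 intensity in pairs 3 to 5 was 21.10, 20.93 and 20.03 in collagen cortex, against 21.13, 20.79 and 19.62 in control cortex. Collagen was higher in 2 of the 3 pairs, with a log2 ratio of 0.17 ± 0.22 (SD, n = 3; 0.03 with print-tip loess). Slc25a1, the citrate exporter, had 21.59, 21.23 and 20.80 in collagen cortex, against 21.59, 20.87 and 20.80 in control cortex. Its ratio of 0.12 ± 0.21 (SD, n = 3; 0.01 with print-tip loess) rests on pair 4, the other 2 pairs being at 0.00.

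Slc25a11, the oxoglutarate-malate carrier of the malate-aspartate shuttle, had 0.09, 0.02, -0.38 and -0.04 in pairs 1, 2, 3 and 5. The mean was -0.10 ± 0.25 (SD, n = 3), and 0.10 with print-tip loess, the opposite sign. Slc25a2, a carrier of ornithine and related amino acids, had -0.27 (-0.28 with print-tip loess), and Slc25a15, another ornithine carrier, 0.09 (0.02). Slc25a46, a protein of the outer mitochondrial membrane, had -0.16 (-0.08), and Slc25a33, a carrier of pyrimidine nucleotides, -0.08 (-0.04). Slc25a18, a glutamate carrier, had 0.02 (0.08), and Slc25a23, a carrier of ATP-magnesium and phosphate, 0.02 (0.08). Of the 7 mitochondrial probes that were not fitted, Slc25a20, the acylcarnitine carrier, had 0.46, -0.09, -0.17 and 0.05 in pairs 1, 2, 4 and 5.

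Carriers of other organic solutes had 20 fitted probes of 53, with 7 above 0 and 13 below and a median of -0.022. Print-tip loess gave 10 above and 10 below with a median of 0.0070, and pairs 3 to 5 alone gave 5 above and 10 below with a median of -0.078. Slc14a2, a urea transporter best known from the kidney, was measured in pairs 1 to 3, with normalised log2 intensities of 16.33, 15.67 and 18.10 in collagen cortex, against 16.55, 16.32 and 18.29 in control cortex. Collagen was the lower in all 3 pairs, by -0.22, -0.65 and -0.20. The mean of -0.36 ± 0.25 (SD, n = 3; limma's SE 0.12) had an unadjusted p of 0.0252 and an adjusted p of 0.643 by limma. With print-tip loess the ratio was -0.43, with an unadjusted p of 0.0383 and an adjusted p of 0.835 by limma. Slc14a1, the urea transporter of red cells and astrocytes, lay on the other side of 0, at 0.27 (0.17 with print-tip loess).

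Slc35b2 carries the sulphate donor of the Golgi. Its normalised log2 intensities in pairs 3 to 5 were 16.46, 16.48 and 17.45 in collagen cortex, against 17.01, 16.60 and 17.68 in control cortex, lower with collagen in each pair. The ratio was -0.30 ± 0.22 (SD, n = 3; limma's SE 0.11) with an unadjusted p of 0.0394 and an adjusted p of 0.643 by limma, and -0.14 with print-tip loess. Its arrays with collagen on Cy3 averaged -0.66, where those with collagen on Cy5 averaged 0.07. Other members of the Slc35 family, which carries nucleotide sugars, lay at -0.10 (Slc35a2), -0.08 (Slc35b1), -0.03 (Slc35g3) and 0.17 (Slc35a1). With print-tip loess Slc35a2 and Slc35g3 turned sign, to 0.04 and 0.11, Slc35b1 was at -0.0021 and Slc35a1 at 0.23.

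The Slc22 family of organic ion carriers had 3 fitted probes. Slc22a4, a carrier of ergothioneine and organic cations, was above 0 in its 4 pairs, at 0.05, 0.25, 0.35 and 0.06 in pairs 1, 3, 4 and 5, with a mean of 0.17 ± 0.10 (SD, n = 3; 0.11 with print-tip loess). Slc22a8, an organic anion transporter of the choroid plexus and blood-brain barrier, was above 0 in all 5 pairs, at 0.01, 0.06, 0.40, 0.03 and 0.05, with a mean of 0.16 ± 0.21 (SD, n = 3; 0.09 with print-tip loess) that rests on pair 3. The urate transporter Slc22a12 was below 0 in 4 of 5 pairs, at -0.41, -0.25, -0.26, 0.05 and -0.10, with a mean of -0.20 ± 0.05 (SD, n = 3). It lies in grid row 2 and had -0.02 with print-tip loess.

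Slc19a2, a thiamine transporter, was below 0 in 4 of 5 pairs, at -0.19, 0.05, -0.11, -0.25 and -0.35, with a mean of -0.16 ± 0.06 (SD, n = 3) and 0.05 with print-tip loess. Slc16a9, of the monocarboxylate carrier family, had -0.18, 0.00, -0.42, 0.11 and -0.05, a mean of -0.16 ± 0.23 (SD, n = 3) and 0.03 with print-tip loess. Both lie in grid row 2, and both turned sign. The lactate transporters of brain were scarcely measured. Slc16a1 had 0.10 in pair 1 and Slc16a7 -0.08 in pair 5, each a single pair, and Slc16a3 had no complete pair.

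**Figure D2:**
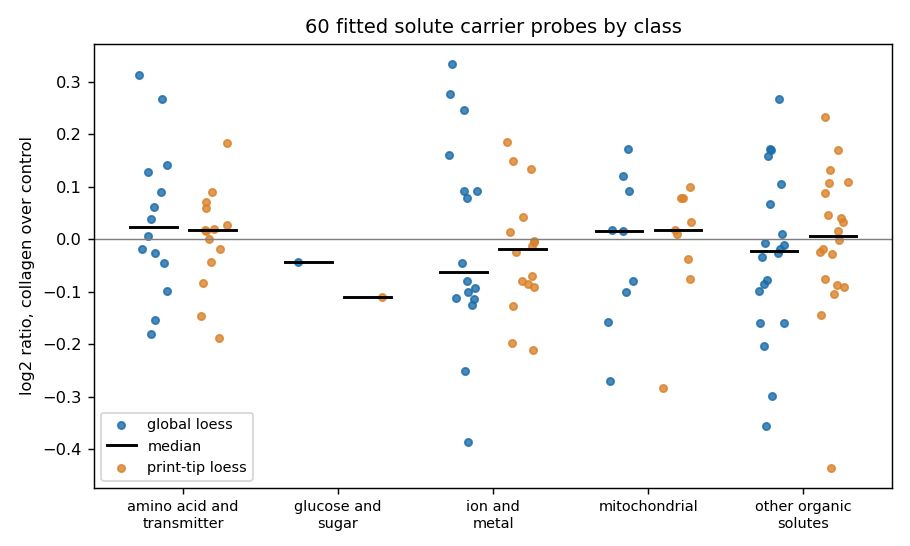
Log2 ratio of collagen over control for the 60 fitted solute carrier probes by class, with a point for each probe and a black line for the class median, after global loess (left of each class) and print-tip loess (right). The medians lie between -0.063 and 0.023 with global loess, and 41 of the 60 probes shrank at least 1.5 times or turned sign with print-tip loess.

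Which carriers could be compared was set by detection. A spot counted as measured where its flag was acceptable and its intensity lay above background. Of the 149 probes, 25 had a ratio in all 5 pairs, 23 in 4, 26 in 3, 35 in 2, 21 in 1 and 19 in none. Of those not fitted, 48 lacked 1 replicate, 22 lacked 2 and 19 had none. Over all listed probes 20.3% had 5 pairs and 14.2% had none, where the solute carriers had 16.8% and 12.8%. Full measurement was found for 8 of 33 amino acid and transmitter probes and 0 of 9 glucose and sugar probes. No probe was without signal in either arm: every member was measured in collagen RNA on at least 5 arrays and in control RNA on at least 5.

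The channel, more than the arm, went with detection. Channel A was measured on more arrays than channel B for 123 members, and the reverse held for none. The median was 10 arrays in channel A and 6 in channel B, over the members and over all listed probes alike. On the 5 arrays with collagen in channel B, 65 to 127 members were measured in collagen RNA and 141 to 149 in control RNA. On the 5 arrays with collagen in channel A, 141 to 148 members were measured in collagen RNA and 69 to 133 in control RNA. Over all 10 arrays, 34 members were measured more often in collagen RNA, 56 more often in control RNA and 59 equally often. The median was 8 arrays in each arm, for the members as for all listed probes. The counts of this paragraph are not given over all probes, so they are no result about the solute carriers.

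**Figure D3:**
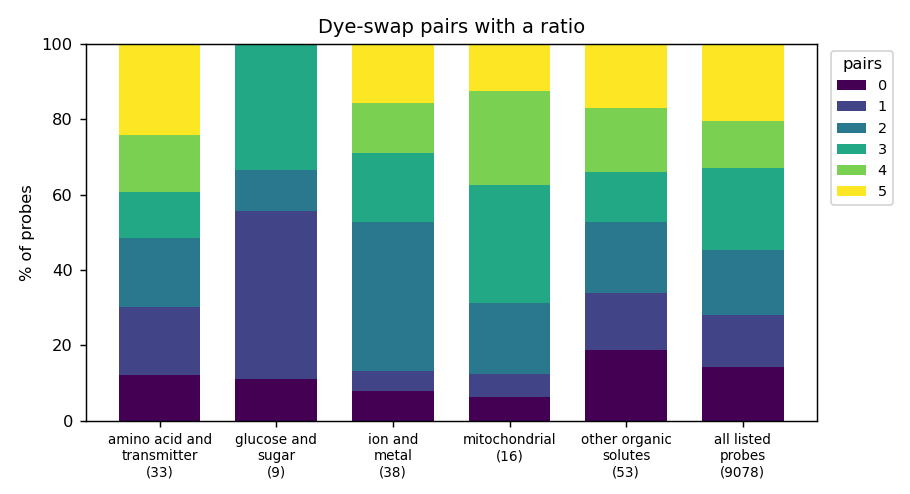
Share of probes (%) by the number of dye-swap pairs in which both arrays gave a ratio, for each class of solute carrier and for all listed probes, with the number of probes in brackets. The glucose and sugar bar has no share at 4 or 5 pairs, and the mitochondrial bar has the smallest share at 0 pairs, 6.25%.

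The arrays of pairs 1 and 2 stood apart from the others in which spots were bright. Over the 149 probes, log2 brightness in channel A correlated between arrays at 0.71 to 0.84 within pairs 1 and 2 and at 0.47 to 0.84 within pairs 3 to 5, but at 0.17 to 0.46 between these sets. Over all listed probes the range between the sets was 0.17 to 0.47. This is a description over probes of shared arrays. Replicates 1 and 2 each join a pair of either set where both gave a ratio. Whether a probe reported the same gene in both sets was not tested, so values over 4 or 5 pairs carry that limit. Of the 60 fitted members, 14 had ratios in pairs 3 to 5 only, among them Slc1a3, Slc2a3, Slc4a4, Slc12a2, Slc20a1, Slc25a1, Slc25a3 and Slc35b2. Over all fitted probes that share was 32.2%. Another 17 of the 149 members had ratios in pairs 1 or 2 alone, among them Slc6a4, against 828 of the 9078 listed probes. With pairs 3 to 5 alone, a choice made after seeing the data, 43 members were fitted and 0 had an adjusted p under 0.05 by limma. Among them 2 higher and 2 lower members had an unadjusted p under 0.05, against 3.11% and 4.41% of all probes, and the median was -0.045.

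The place on the array moved with the ratios. The 17 fitted members in grid rows 1 to 3 had a median log2 ratio of -0.15 with 15 below 0, and the 43 members in rows 4 to 12 had a median of 0.018 with 18 below 0. All probes showed the same division, with medians of -0.13 and 0.016. With print-tip loess the medians of the solute carriers were 0.018 in rows 1 to 3 and -0.0040 in rows 4 to 12. Of the 10 lower members named for the same sign in all 3 replicates, 8 lie in rows 1 to 3, and of the 7 higher ones 2 do. Print-tip loess turned the sign of 14 of the 60 members, and 41 shrank at least 1.5 times or turned. The same counts over all probes are not given here.

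**Figure D4:**
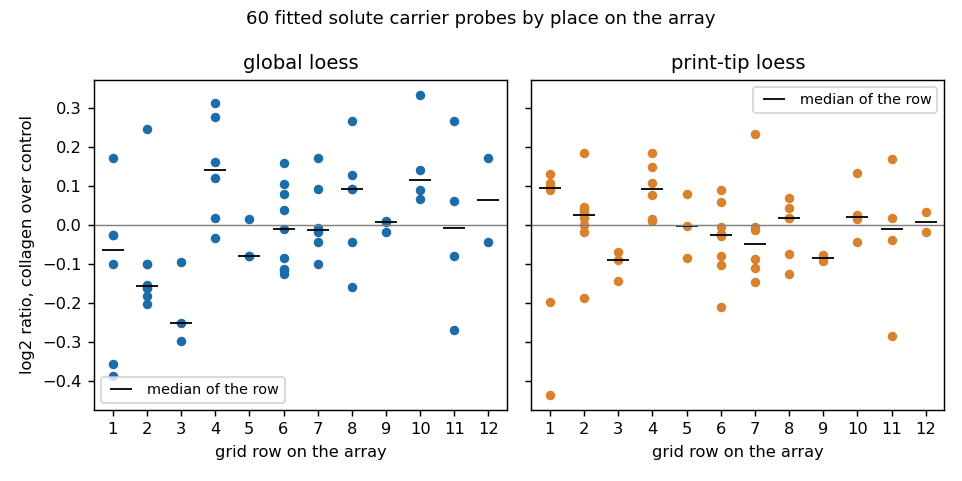
Log2 ratio of collagen over control for the 60 fitted solute carrier probes against the grid row in which the probe was printed, after global loess (left) and print-tip loess (right), with a dash for the median of each row. The members of rows 1 to 3 together have a median of -0.15 with global loess and 0.018 with print-tip loess. After print-tip loess the lowest point is Slc14a2 at -0.43 in row 1.

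Differences between the dyes were larger than differences between the arms. Across the 60 members the dye difference, channel B over channel A, had a standard deviation of 0.399, and the collagen over control ratio 0.161. Over all 4125 fitted probes these were 0.303 and 0.163. A dye difference passed limma's test for 2 members, Slc25a2 (-1.87, adjusted p = 0.00124) and Slc43a3 (-1.44, adjusted p = 0.0211). That is 3.33% of the members, where 88 of all fitted probes, 2.13%, passed. Both orientations gave the same sign of the collagen ratio for 18 members and opposite signs for 42. Opposite signs were likewise found for 2620 of the 4125 probes, so the split is not particular to the solute carriers. Slc4a4 had -0.26 with collagen on Cy5 and -0.52 with collagen on Cy3, Slc14a2 had -0.35 and -0.33, and Slc20a1 had 0.23 and 0.21, so these 3 kept their sign in both. The mean over a pair takes out a dye difference that is equal on its 2 arrays.

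**Figure D5:**
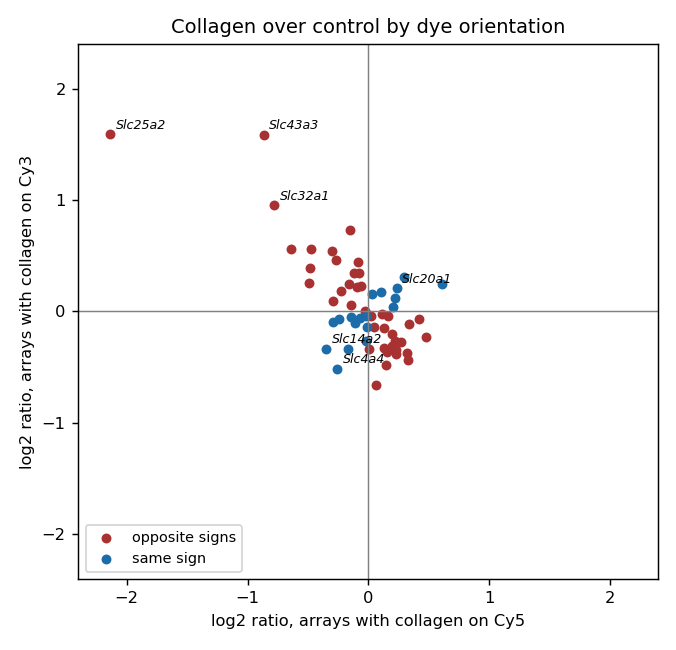
Log2 ratio of collagen over control averaged over the arrays with collagen on Cy5 (horizontal axis) and over the arrays with collagen on Cy3 (vertical axis) for the 60 fitted solute carrier probes, coloured by whether the 2 signs match. The points run from upper left to lower right, with Slc25a2 at -2.14 and 1.59 the farthest out.

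Genes measured by 2 probes gave little to compare. Besides Slc4a4, the scaffold Slc9a3r2 had a fitted probe at -0.08 ± 0.31 (SD, n = 3) and another with 0.40 and -0.19 in pairs 1 and 2. Slc66a2 had 1 probe with 0.22 and -0.15 in pairs 1 and 2 and 1 with no complete pair, and Slc35f4 had 1 probe with -0.06 in pair 4 and 1 with none.

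Proteins that power or accompany the carriers had no probe with an adjusted p under 0.05 by limma either. Of 3 fitted sodium pump subunits, 1 was above 0 and 2 below, with a median of -0.047 (-0.0084 with print-tip loess), and Fxyd1, a regulator of the pump, was above 0 in all 5 pairs with a mean of 0.18 ± 0.03 (SD, n = 3; 0.16 with print-tip loess). Of 6 vesicular proton pump subunits 3 were above and 3 below, with a median of -0.018 (0.032 with print-tip loess). Enzymes that make or break down transported transmitters gave 2 above and 2 below with a median of -0.025 (0.081 with print-tip loess), and Srr, which makes D-serine, had 0.41 (0.16 with print-tip loess), with 1.45 in pair 4 and 0.12 to 0.51 in the others. Subunits and kinases of plasma membrane carriers had a median of -0.00065 over 3 probes (0.011 with print-tip loess), and other mitochondrial solute channels and carriers 0.13 over 5 probes (0.050 with print-tip loess).

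Markers of cell types were set beside the carriers because many carriers belong to 1 cell type. Median log2 ratios were 0.0028 over 8 probes of excitatory neurons, -0.056 over 6 of interneurons, -0.044 over 6 of astrocytes and -0.035 over 6 of oligodendrocytes. All 4 medians turned sign with print-tip loess, to -0.023, 0.036, 0.0066 and 0.069. Single probes lay farther from 0. In the same order of lists, they ranged with global loess from -0.38 to 0.17, -0.15 to 0.09, -0.39 to 0.34 and -0.22 to 0.35. The medians were -0.20 over 5 probes of microglia and macrophages (-0.11 with print-tip loess), -0.27 over 3 of meninges, pericytes and vessel muscle (-0.12) and -0.11 over 3 of striatum (-0.025). Choroid plexus and ependyma had -0.15 over 2 probes (-0.11 with print-tip loess), olfactory bulb -0.026 over 2 (0.011), endothelium -0.19 in 1 (-0.041) and blood 0.047 in 1 (0.10). None of these probes had an adjusted p under 0.05 by limma. The interneuron list contains Slc32a1, at 0.09, and shares Gad1 and Gad2 with the transmitter enzymes. The list of meninges, pericytes and vessel muscle contains Slc22a6, which was not fitted. The astrocyte list contains Slc4a4 and Slc1a3 themselves, and its other fitted members lay on both sides of 0, with Gjb6 at 0.34 (0.25 with print-tip loess), Sox9 at 0.0091 (0.05), Fabp7 at -0.10 (-0.20) and Aldh1l1 at -0.20 (-0.0033). Their part in the ratio of Slc4a4 was not tested.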

How the data were processed

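The 3 deposited files of an array were treated as repeat readings of it. Per the file headers, the intensity of a spot in channels A and B is corrected for local background, so no further correction was made. Spots flagged X, Y or Z or without positive intensity were left out. The authors' deposited table gives each spot of an array a score (a log ratio of unstated base), used here only as an alternative. The sources used here give neither scanner nor software.

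Log2 ratios of channel B over A of listed probes were normalised reading by reading with a global loess curve in limma (span 0.3) and averaged over readings. They were turned to collagen over control, averaged within a dye-swap pair where both arrays had a value, then over pairs with the same replicate number. The 4125 probes with 3 replicates were fitted with an intercept (lmFit and eBayes, limma 3.58.1, R 4.3.3, two-sided) with Benjamini-Hochberg adjustment. For the normalised log2 intensity of an arm, the mean of both channels of a spot was averaged over readings and quantile-normalised between arrays. The arms were placed around that value and differ by the normalised ratio. The level of such an intensity is therefore not the measured mean of the channels. The steps from the array ratio to the fit were tested on simulated ratios. These did not pass through spot flags, background correction or loess, and held no effect of place on the array. No signal of one probe was set against that of another, and the number of arrays limits the precision.

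Members and lists were chosen with earlier results of these data known. Named were the members of the same sign in 3 replicates with the lowest p, up to 10 each way (10 lower and 7 higher), the 23 with a probe among 49 carriers known from cortex (14 fitted), and genes with several probes, while others appear by ratio. Carrier classes follow family numbers. The alternatives were background correction, normalisation, probe and spot filters, readings, the authors' table, the unit of replication and left-out replicates or pairs.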

Additional observations from a re-analysis of the deposited data

Results flagged for a closer look

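Dixon's criterion was applied to 20 groups of 4 or 5 pair values, which were named members and the median over all members. In 3 of them, all members, a pair lay far from the others. Chance alone meets the criterion in about 1 in 20 groups of unselected values. Many of these members were named for the same sign in all 3 replicates, so that rate need not hold. Members given by ratio only, such as Slc15a2, Slc25a20 and Slc35f6, were not tested. Slc4a1ap had 0.81 in pair 3, where the nearest of the other pairs was 0.13. Slc22a8 had 0.40 in pair 3, where the nearest was 0.058. Slc30a3 had -0.28 in pair 4, where the nearest was 0.088.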

How the results depend on the processing

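No solute carrier had an adjusted p under 0.05 by limma under any of the alternatives run. The replicate block (a random effect of the replicate number over 10 arrays, consensus correlation -0.157) also gave 0, with 5 at an unadjusted p under 0.05, the same as with a dye term added. Over all probes the adjusted count was 1 with scaling between arrays and 1 with the authors' table, and 0 to 1 with a replicate left out, 1 without replicate 2. Members at an unadjusted p under 0.05, 4 as reported, numbered 7 with no background correction (11.7% of members, against 9.82% of all probes), 7 with 5 pairs as 5 values (11.7% against 8.70%), 2 with median centring (3.33% against 3.52%), 2 without pair 4 (4.44% against 5.80%), 1 with print-tip loess (1.67% against 4.53%) and 1 with probes kept on all 10 arrays (4.00% of 25 members against 6.02%). With a replicate left out they numbered 3 to 12, the highest without replicate 3 (12.4% against 5.88%). The median over members was 0.037 with reading 1 alone. Members of the same sign in all 3 replicates, 21 of 60 fitted as reported, numbered 10 of 25 with probes kept on all 10 arrays. They numbered 13 of 45 with reading 3 alone (which measured 13 members on all 10 arrays, where the mean of readings measured 25). The authors' table gave 13 of 45, pairs 1 to 3 alone gave 12 of 40, and the fit without pair 5 gave 10 of 41. The shares over all probes are not given for these settings. The cause of these moves was not tested, except that fewer members were fitted in the last 5, 25 to 45. Print-tip loess turned the sign of 3 of the 17 named members (Slc7a3, Slc16a9 and Slc19a2), and the authors' table that of 3 of its 14 (Slc7a3, Slc14a2 and Slc16a9). No other alternative turned a named sign. Over the 149 members, 10 arrays and 3 readings, 2004 of 4470 values in channel B and 548 of 4470 in channel A were flagged or not positive, and 89 members could not be fitted.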

Other observations

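Members without all 3 replicates are given here as values, chosen after their values were seen. Slc35f6 was below 0 in its 4 pairs, at -0.29, -0.02, -0.24 and -0.15 in pairs 1, 2, 4 and 5. Slc30a6, a zinc transporter, had 0.35 and 0.26 in pairs 4 and 5, and Slc4a8, a sodium-driven bicarbonate exchanger, had -0.35 and -0.19 in the same pairs. The ratios farthest from 0 were single pairs among several or alone, with 1.12 for Slc37a3 in pair 1, -0.88 for Slc37a2 in pair 3, -0.82 for Slc35a5 in pair 2, -0.73 for Slc25a36 in pair 4 and -0.70 for Slc6a20b in pair 3.

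Across the fitted members, pairs of the same replicate number correlated at 0.066 (pairs 1 and 4, 29 probes) and 0.19 (pairs 2 and 5, 38 probes). The highest value was 0.48 between pairs 4 and 5 (43 probes), which carry different numbers. These are correlations over probes that share arrays and grids, not over independent samples.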
